A study of Mus musculus with 18 samples.

Results

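The metabotropic glutamate receptors and the GABA-B receptor are the G protein-coupled receptors of the main excitatory and inhibitory transmitters of the brain. They were followed here through every probe set, a group of short array probes read as 1 value, that the array annotation assigns to exactly 1 gene symbol among Grm2, Grm3, Grm4, Grm5, Grm7, Grm8, Gabbr1 and Gabbr2. The rule found 13 of 45037 probe sets, covering 7 of 18193 genes. Gabbr1 had 4 probe sets, Grm7 had 3, Grm5 had 2, and Grm2, Grm3, Grm4 and Grm8 had 1 each. No probe set carried the symbol Gabbr2 alone, so that subunit was not analysed here, and 1 probe set shared by Grm2 and another symbol was left out by the rule.

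The series holds 18 arrays in 2 groups of 9. In the IP group, RNA was recovered from formaldehyde-fixed brain with an antibody against a flag tag on poly(A)-binding protein, a protein that holds the tails of messenger RNAs, and the labels call it polyA RNA. The WB group was total RNA of whole brain. Both groups came from mice that carried the transgene (strain C57BL/6J X DBA/2J, aged 11 and 14 weeks, with ages not assigned to samples). It is a bacterial artificial chromosome in which the coding sequence of orexin, a wake-promoting peptide of the lateral hypothalamus, was replaced by the flag-tagged rat protein followed by eGFP. Nothing in the labels ties a sample number to 1 animal, so the spread behind each p-value is that between samples and may be technical. The recovery step and the kind of RNA cannot be told apart, since each group had its own. Precision is limited by the number of arrays.

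Metabotropic glutamate receptors fall into 3 groups. Group I (here Grm5) couples to Gq and phospholipase C and sits mostly on the postsynaptic side, where Homer proteins bind its tail. Group II (Grm2, Grm3) and group III (Grm4, Grm7, Grm8) couple to Gi/o, lower cyclic AMP, and act largely as presynaptic brakes on transmitter release. Grm3 and Grm5 are also expressed by astrocytes, and Grm4 is abundant in cerebellar granule cells. The GABA-B receptor is a heterodimer in which the Gabbr1 product binds GABA and the Gabbr2 product engages the G protein. It opens GIRK potassium channels and closes presynaptic calcium channels. GABA-B receptors are known to restrain orexin neurons, and group III receptors to act on the glutamate terminals that contact them.

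The arrays differed as a whole between the groups, and this touches each value below. The authors scaled every array to a trimmed mean of 500, yet the median intensity was 154 to 203 in IP and 221 to 267 in WB. The mean correlation of an array with the other WB arrays was 0.73 to 0.83 for IP and 0.94 for WB. IP replicates 2, 5, 6 and 8 had an untrimmed mean of at least 924, above the other 5 IP arrays. The 3′ minus 5′ log2 difference of the Gapdh control probe sets was 3.33 to 5.45 in IP and 1.33 to 1.78 in WB, and it was higher in IP by exact permutation test (difference 2.58, adjusted p = 6.17e-05 over 6 such controls). Beta-actin was the only one of the 6 that did not pass (-0.19, adjusted p = 0.249 in the same exact test). The others were the dap, phe, thr and lys spikes, added bacterial transcripts that did not come from the brain. Their differences were 1.52, 1.54, 2.12 and 3.05, with adjusted p of at most 9.87e-05 in that test. Hcrt, which encodes orexin and checks the labelled cells, had a log2 difference of 0.21 (SE 0.28, limma adjusted p = 0.568) on its only probe set, and -0.62 on a scale set by the hybridization controls, spiked-in bacterial transcripts.

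In IP, 3 of the 13 receptor probe sets rose and 4 fell past an adjusted p of 0.05 in limma, while 6 did not pass. Those shares of 23.1% and 30.8% stand beside 14.2% higher and 30.8% lower among all probe sets tested. The median difference was -0.13 over the receptor probe sets and -0.23 over all probe sets (log2 of intensity + 16, IP minus WB). The 3 that were higher, 1 each of Grm4, Grm7 and Gabbr1, had all 9 IP arrays above all 9 WB arrays, as did 5.22% of all probe sets. Only 1 of the 4 that were lower, a Gabbr1 probe set, had all IP arrays below all WB arrays, as did 10.3% of all probe sets. The counts of 3 higher and 4 lower were the same without IP replicates 2, 5, 6 and 8. They were 4 and 4 under quantile normalization (24.1% and 22% of all probe sets), 4 and 2 after median centring (28.4% and 18.5%), and 2 and 8 on a scale set by the hybridization controls (3.29% and 61.2%). Calls went both ways within Grm7 and within Gabbr1. In 12 of the 13 probe sets the SD was larger in IP than in WB, with medians of 0.46 and 0.24 against 0.74 and 0.34 over all probe sets. Less RNA per cell and fewer contributing cells cannot be told apart in such bulk samples.

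**Figure D1:**
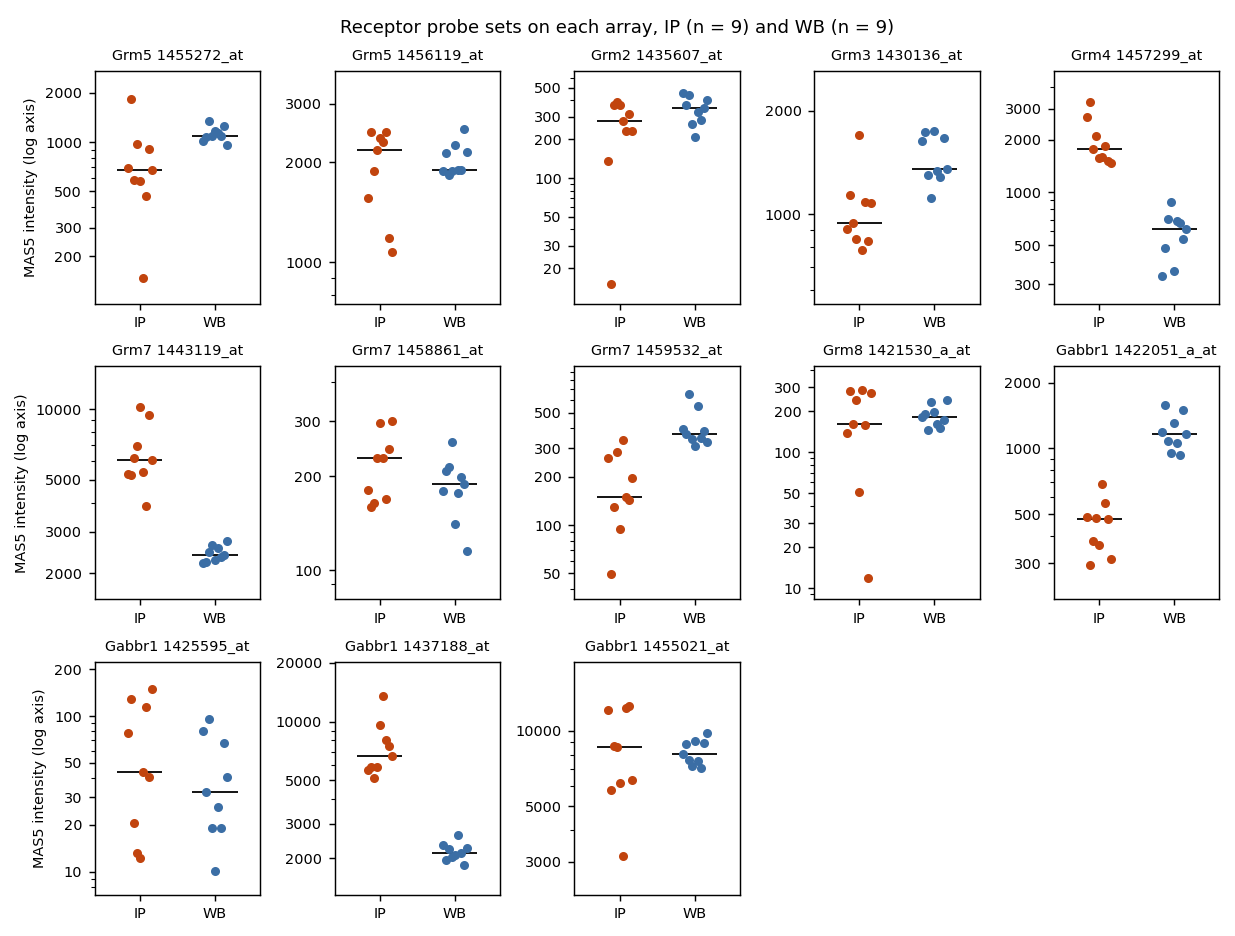
MAS5 intensity (log axis, each panel with its own range) of the 13 receptor probe sets on each of the 9 IP and 9 WB arrays, where points are arrays and black lines are group medians. IP and WB arrays do not overlap for Grm4, for Grm7 1443119_at, or for Gabbr1 1422051_a_at and 1437188_at.

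Grm5, the group I receptor, was lower in IP on 1 of its 2 probe sets. Probe set 1455272_at had intensities of 147, 676 and 1824 in IP (lowest, median, highest), against 964, 1093 and 1346 in WB. Of the 9 IP arrays 7 lay below every WB array, while IP replicate 2 lay above all of them and IP replicate 6 was the lowest. The log2 difference was -0.79 (SE 0.28, adjusted p = 0.0245). This call was lost with quantile normalization (-0.64, adjusted p = 0.0515) and with median centring (-0.36, adjusted p = 0.311). Its other probe set, 1456119_at, had 1073, 2182 and 2474 in IP, against 1833, 1902 and 2515 in WB. There the groups overlapped, 5 IP arrays lay above the WB mean and 4 below it, and the difference of -0.13 (95% CI -0.46 to 0.20, adjusted p = 0.545) did not pass. It turned to 0.29 (adjusted p = 0.177) with median centring and was -1.04 (adjusted p = 0.000159) on a scale set by the hybridization controls.

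Grm3, a group II receptor that astrocytes also use, was lower in IP. Its probe set 1430136_at had 784, 941 and 1699 in IP, against 1114, 1350 and 1745 in WB. All but 2 of the IP arrays lay below every WB array, and IP replicate 5 was the highest IP array, with 1137 the next. The difference was -0.51 (SE 0.15, adjusted p = 0.00708), or 1.43-fold lower, and it was -0.09 (adjusted p = 0.698) with median centring. Grm2, the other group II receptor, had 15.2, 277 and 389 on 1435607_at in IP, against 210, 352 and 454 in WB. The groups overlapped, with IP replicate 2 at the lowest value. The difference of -0.62 (95% CI -1.38 to 0.14, adjusted p = 0.177) did not pass, and without IP replicate 2 it was -0.26. On the hybridization controls it was -1.39 (adjusted p = 0.00286).

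Astrocyte markers split over the same arrays, with 3 of 8 higher and 4 lower in IP on the brightest probe set of each gene, where 21.7% of all genes were higher and 21.7% lower. The median difference over the 8 was -0.53. Their summed intensity was 39171 to 70126 in IP and 26961 to 36984 in WB, with 0 of the 8 listed at 0. The higher IP sum came largely from Gja1 (19695 to 44871 in IP, 10373 to 13840 in WB, an _x_at probe set) and Gfap (5158 to 13364 in IP, 811 to 1744 in WB). Aldh1l1, Slc1a2, S100b and Sox9 were lower. The 3 that were higher were lower on other probe sets, Gfap on 1 of 3, Aqp4 on 2 of 3 and Gja1 on 1 of 6. The part of astrocytes in the Grm3 and Grm5 values was not tested.

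Among the group III receptors, which dampen transmitter release, Grm4 stood higher in IP. Probe set 1457299_at had 1464, 1755 and 3287 in IP, against 333, 622 and 884 in WB. Every IP array lay above every WB array, with IP replicates 2 and 1 the highest. The difference was 1.73 (SE 0.20, adjusted p = 8.53e-08), or 3.32-fold, and it stayed past the threshold under each of the 4 scalings, from 0.83 with scaling on the hybridization controls to 2.16 with median centring. Markers of cerebellar granule cells, where Grm4 is abundant, were mostly higher in IP too. Of those 5 markers 4 were higher and 0 lower, beside 21.7% each way over all genes. On the hybridization controls 3 were higher and 1 lower, and no share over genes is given for that scaling. Their summed intensity was 31626 to 67753 in IP and 12857 to 17527 in WB, with 0 of the 5 at 0. Neurod1, a transcription factor of granule cells, was 3.72-fold higher (adjusted p = 1.42e-08), and Gabra6, their GABA-A receptor subunit, was 1.97-fold higher (adjusted p = 0.000122) on its brightest probe set and lower on its other one. Zic2 pointed down and did not pass (-0.46, limma adjusted p = 0.0889). Zic1 made up most of the sum, with 22111 to 47145 in IP and 8395 to 11981 in WB. Whether these markers followed Grm4 from array to array was not tested, nor was the part of granule cells in the Grm4 value.

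Grm7, the most widespread of the presynaptic group III receptors, gave a different answer on each of its 3 probe sets. On 1443119_at it had 3851, 6062 and 10166 in IP, against 2211, 2390 and 2747 in WB. The IP arrays all lay above the WB arrays, and the WB arrays were tightly grouped. That difference was 1.36 (SE 0.15, adjusted p = 5.49e-08), or 2.57-fold, and it was 0.44 (adjusted p = 0.0769) with scaling on the hybridization controls. On 1459532_at the values were 49.4, 149 and 337 in IP, against 309, 367 and 649 in WB. Of the IP arrays 8 lay below every WB array, and all 9 below the WB mean. The difference was -1.22 (SE 0.28, adjusted p = 0.000949), or 2.33-fold lower, and it passed under each of the 4 scalings. The remaining probe set, 1458861_at, had 159, 228 and 300 in IP, against 115, 189 and 257 in WB. These groups overlapped, and the difference of 0.21 (95% CI -0.24 to 0.66, adjusted p = 0.468) did not pass. With quantile normalization it was 0.64 (adjusted p = 0.0171) and with median centring 0.63 (adjusted p = 0.0203).

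Grm8, the last group III receptor measured, had 11.8, 161 and 286 on 1421530_a_at in IP, against 146, 180 and 241 in WB. The IP arrays spread on both sides of the WB arrays, with 3 above and 3 below all of them. Its difference of -0.34 (95% CI -1.11 to 0.43, adjusted p = 0.488) did not pass. It turned to 0.10 with quantile normalization and to 0.084 with median centring, and was -1.13 (adjusted p = 0.0132) on a scale set by the hybridization controls. Without IP replicate 8, the lowest array, it was -0.028. The trpn controls, bacterial probe sets with dim signal, reached 146 in IP and 122 in WB, so the lowest IP values of Grm2, Grm7 1459532_at and Grm8 lay below the brightest of them. For Grm7 1459532_at the IP median of 149 was also close to that 146.

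**Figure D2:**
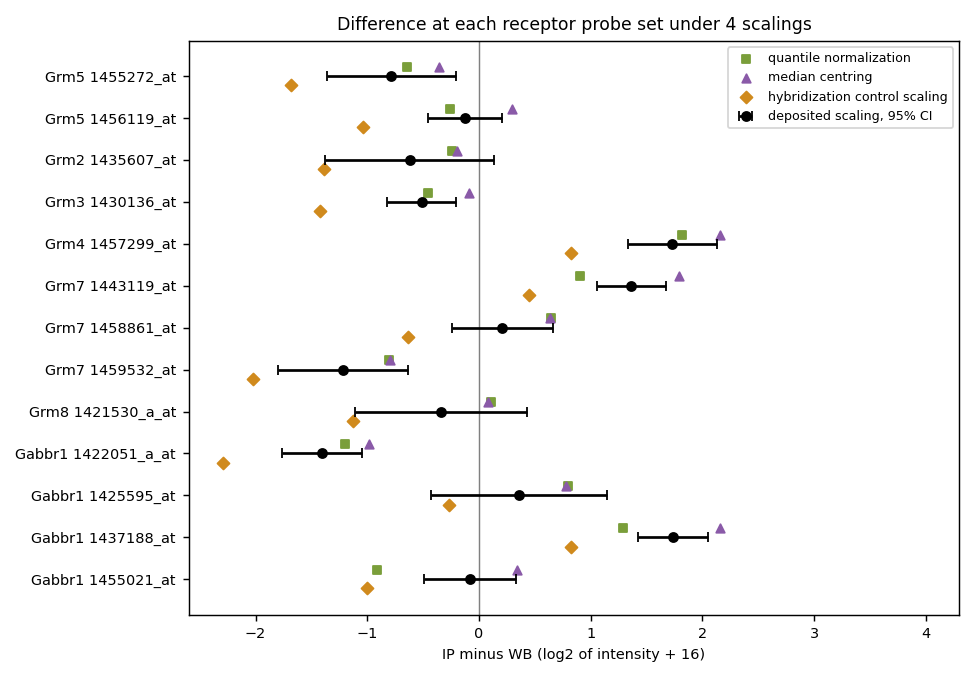
Difference between IP and WB (log2 of intensity + 16) at each receptor probe set, with black points and 95% confidence intervals for the deposited scaling (n = 9 IP and 9 WB arrays) and coloured markers for 3 other scalings. Over the 4 scalings 5 probe sets lie on both sides of 0, among them Gabbr1 1455021_at, while Grm4, Grm7 1443119_at and Gabbr1 1437188_at lie to the right of 0 under all 4.

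Gabbr1, the GABA-binding subunit of the GABA-B receptor, was measured by 4 probe sets that did not move together. Probe set 1437188_at had 5146, 6696 and 13508 in IP, against 1852, 2116 and 2631 in WB. All IP arrays stood above all WB arrays, and IP replicates 6 and 5 were the highest. Its difference of 1.74 (SE 0.15, adjusted p = 1.39e-09), or 3.33-fold, passed the threshold. Probe set 1422051_a_at, built on the reference transcript of the gene, had 293, 478 and 685 in IP, against 930, 1160 and 1584 in WB. Here all IP arrays stood below all WB arrays. The difference was -1.41 (SE 0.17, adjusted p = 3.3e-07), or 2.65-fold lower. Both of these calls held under each of the 4 scalings.

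The brightest Gabbr1 probe set, 1455021_at, had 3167, 8591 and 12534 in IP, against 7110, 8068 and 9752 in WB. The WB arrays fell inside the IP range, with 3 IP arrays above and 4 below all of them. The difference of -0.08 (95% CI -0.49 to 0.33, adjusted p = 0.765) did not pass, and it turned to 0.08 without IP replicate 6, the lowest array. It was -0.91 (adjusted p = 0.000249) under quantile normalization and -1.0 (adjusted p = 0.00291) on the hybridization controls, but 0.34 (adjusted p = 0.189) with median centring. The dimmest, 1425595_at, had 12.3, 43.6 and 149 in IP, against 10.1, 32.3 and 95.2 in WB. These values were close to the range of the trpn controls, which ran from 14.3 to 146 in IP and from 7.43 to 122 in WB, and the difference of 0.36 (SE 0.38, adjusted p = 0.479) did not pass.

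The unequal change of probe sets of 1 gene was tested within arrays, where a common scale factor cancels apart from the pseudocount. In each pair the probe set with the larger IP minus WB difference was put first, so the positive sign of the gaps was set by this order. All 10 pairs of probe sets of Grm5, Grm7 and Gabbr1 were compared by two-sided exact permutation test (48620 divisions of the 18 arrays). Of these, 8 passed after Benjamini-Hochberg adjustment for 10 tests. Pairs of Grm7 and of Gabbr1 share probe sets, so the 10 tests are not independent. The share of passing pairs over all genes was not computed, so the count does not set these receptors apart. Limma calls also went both ways within some other genes, such as Mbp (4 of 8 probe sets higher, 4 lower) and Gnaq (3 of 7 higher, 4 lower). They did not within others, such as Zic1 (2 of 2 higher). For Gabbr1, 1437188_at minus 1422051_a_at was 4.01 ± 0.40 in IP and 0.86 ± 0.36 in WB (log2, mean ± SD, n = 9 each), a gap of 3.14 (adjusted p = 0.000137, exact). All IP arrays lay above all WB arrays, and the raw p of 4.11e-05 is the smallest that these divisions can give. For Grm7, 1443119_at minus 1459532_at was 5.14 ± 0.94 in IP and 2.56 ± 0.35 in WB (n = 9 each), a gap of 2.58 with the same exact p-values and no overlap. Gabbr1 1437188_at minus 1455021_at also separated the groups, with a gap of 1.82 (adjusted p = 0.000137, exact permutation).

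The pair of Grm5 probe sets had a gap of 0.66 (adjusted p = 0.0953, exact permutation), with overlapping groups. Without IP replicate 2 it was 0.79 (adjusted p = 0.0351), and without IP replicate 8 it was 0.80 (adjusted p = 0.0314, both exact). Gabbr1 1425595_at against 1455021_at did not pass either (0.44, adjusted p = 0.349, exact permutation), although under quantile normalization its gap was 1.71 (adjusted p = 0.0015, exact). The remaining 5 pairs passed with gaps from 1.15 to 1.76, and 3 of these did not pass under quantile normalization. Pairs with Gabbr1 1425595_at rest on values close to the trpn range. Among them, 1437188_at against 1425595_at did not pass with a pseudocount of 1 (adjusted p = 0.0576, exact). The 3′ to 5′ difference of the control probe sets moved with the groups over the same arrays, as given above. The position of each receptor probe set along its transcript was not used here, and the part of the 3′ to 5′ difference in these gaps was not tested.

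**Figure D3:**
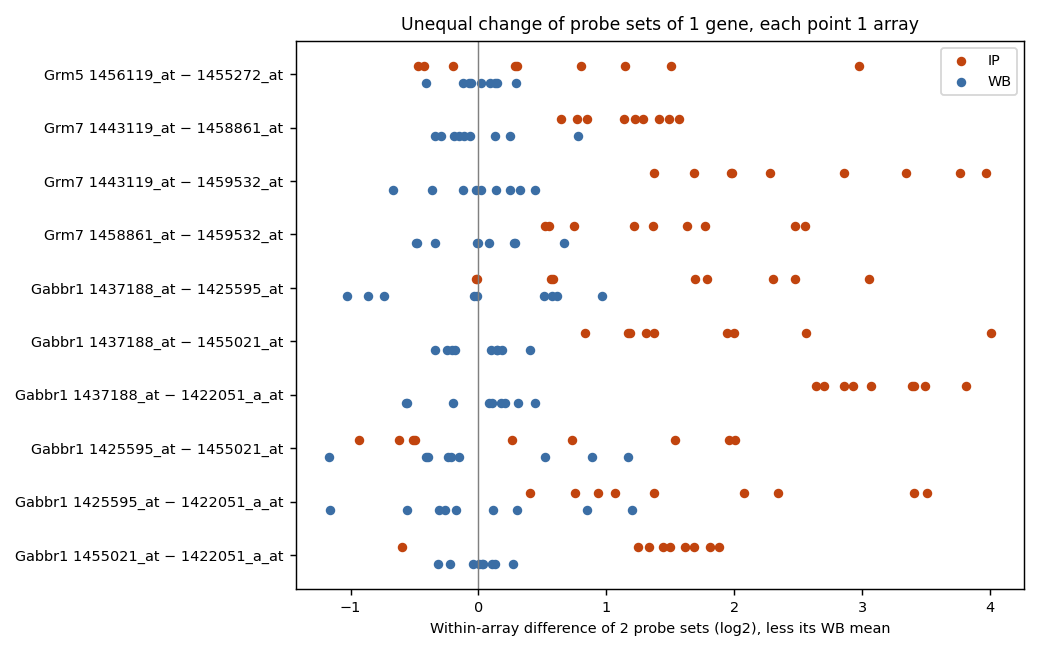
Within-array difference of 2 probe sets of 1 gene (log2), less its mean over the WB arrays, for all 10 pairs, where each point is 1 of 9 IP or 9 WB arrays. The probe set with the larger IP minus WB difference comes first in each pair, so the rightward direction was set by this order. IP points lie wholly to the right of WB points in 3 pairs, those of Gabbr1 1437188_at with 1422051_a_at and with 1455021_at and that of Grm7 1443119_at with 1459532_at.

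Arrays of the IP group also varied among themselves. For the brightest glutamate receptor probe set, Grm7 1443119_at, the genes most alike over the 9 IP arrays were Trps1 (Pearson r = 0.96), Mtpn (0.96) and Gad1 (0.95). For the brightest GABA-B probe set, Gabbr1 1455021_at, they were Cct7 (0.98), Ncoa3 (0.96) and Rpl10a (0.96). These are the highest of 18193 correlations across 9 arrays that share 1 scaling each, and they are a description only.

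The signalling partners of the receptors, taken on the brightest probe set of each gene, also split. Of 56 measured genes in 7 lists, 16 were higher and 18 lower in IP, or 28.6% and 32.1%, beside 21.7% higher and 21.7% lower over all genes. Their median difference was -0.03, against 0.00 over all genes. These shares over all genes hold for the deposited scaling, and none is given beside the counts under other scalings below.

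Of 15 G protein subunits 3 were higher and 7 lower (median -0.29). With median centring 4 were higher and 3 lower (median 0.14), and on the hybridization controls 2 were higher and 12 lower. Gng4, a gamma subunit, was 4.20-fold higher with 4988 to 17666 in IP, against 1542 to 2538 in WB (adjusted p = 2.34e-09). Gnai1, an inhibitory alpha subunit of the Gi class used by group II, group III and GABA-B receptors, was 2.45-fold higher (adjusted p = 8.24e-09). Both were higher on 1 of 3 probe sets and lower on another. Gnaz, the related Gz alpha subunit, had 23.6, 140 and 467 in IP, with the median inside the trpn range, against 1122, 1486 and 2155 in WB. It was 9.54-fold lower (adjusted p = 7.12e-08), with both of its probe sets lower. Its log2 difference ran from -2.82 with a pseudocount of 64 to -3.47 with 1, and was -2.40 without IP replicates 2, 5, 6 and 8. Gnb5, the beta subunit that pairs with RGS proteins, was 2.97-fold lower (adjusted p = 3.4e-06) on 1 of 2 probe sets, with 0 higher.

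RGS proteins speed the shut-off of G proteins, and 3 of 8 were higher and 3 lower (median -0.19). With median centring 4 were higher and 1 lower (median 0.24), and on the hybridization controls 0 were higher and 5 lower. Rgs2, which acts on Gq, was 2.36-fold higher (adjusted p = 1.69e-08) with 2 of 4 probe sets higher and 1 lower. Rgs20, which acts on Gz, was 2.20-fold higher (adjusted p = 3.07e-06) on 1 of 3 probe sets, with 0 lower. Rgs20 turned to -0.06 with quantile normalization, and neither gene passed with scaling on the hybridization controls. Rgs10 was 1.85-fold lower (adjusted p = 0.000357) and Rgs8 1.80-fold lower (adjusted p = 0.00476, lost with median centring).

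Among 11 measured scaffolds and effectors of group I receptors, 4 were higher and 2 lower (median 0.21). With median centring 7 were higher and 1 lower, and on the hybridization controls 0 were higher and 6 lower (median -0.67). Homer1, which binds the tail of group I receptors, had 2650 to 4264 in IP, against 1235 to 1975 in WB, and was 2.00-fold higher (adjusted p = 3.65e-07). Of its 6 probe sets 2 were higher and 3 lower, and its call was lost with scaling on the hybridization controls. Trpc1, a cation channel opened downstream of these receptors, was 1.84-fold higher (adjusted p = 0.00148) and turned to -0.025 with that scaling, and its other probe set was lower. Shank3, the scaffold that holds Homer in the postsynaptic density, was 2.33-fold lower (adjusted p = 2.51e-05). Prkca, a protein kinase C, was 2.04-fold lower (adjusted p = 0.00711) on 1 of 3 probe sets, with 0 higher. It did not pass with median centring (-0.61, adjusted p = 0.0954) or without IP replicates 2, 5, 6 and 8 (-0.51, adjusted p = 0.0769), when 3 genes of the list were higher and 1 lower. Of 4 synaptic partners of group III receptors 0 were higher and 1 lower (1 and 2 without IP replicates 2, 5, 6 and 8; median -0.26, turning to 0.09 with quantile normalization). Elfn2, an adhesion protein that binds these receptors across the synapse, was lower with 9.06, 50.2 and 171 in IP, with the median inside the trpn range, against 125, 251 and 304 in WB (adjusted p = 0.000223). Its log2 difference ran from -1.29 with a pseudocount of 64 to -2.36 with 1.

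For the GABA-B receptor, 3 of 6 measured auxiliary subunits and partners were higher and 1 lower (median 0.41), or 2 and 2 on the hybridization controls (median -0.38). Ajap1, a membrane protein that binds the extracellular part of Gabbr1, had 4103 to 21815 in IP, against 687 to 1306 in WB, and was 12.8-fold higher (adjusted p = 1.07e-11). Jakmip1, a cytoplasmic partner of Gabbr1, had 5592 to 12174 in IP, against 1158 to 1674 in WB, and was 6.19-fold higher (adjusted p = 7.14e-13). Both probe sets have IDs ending in _x_at, a class whose probes can match several genes, and each gene had 2 probe sets higher and 0 lower. Kctd16, an auxiliary subunit that shapes the receptor's kinetics, was 2.64-fold lower with no overlap of the groups (adjusted p = 4.76e-06).

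GIRK channels, opened by the beta-gamma subunits that GABA-B receptors release, gave 1 higher and 1 lower of 4 (median -0.16), 2 and 1 with median centring (median 0.27), and 0 and 3 on the hybridization controls. Kcnj3 was 1.67-fold higher on its brightest probe set (adjusted p = 5.68e-05) while its other 3 were lower, and it turned to -0.13 with quantile normalization and -0.18 with scaling on the hybridization controls. Kcnj9 was 2.45-fold lower (adjusted p = 0.000332) on 1 of 4 probe sets, with 0 higher. Adenylyl cyclases, which Gi/o-coupled receptors inhibit, gave 2 higher and 3 lower of 8 (median 0.01, turning to -0.03 without IP replicates 2, 5, 6 and 8), and 1 and 5 on the hybridization controls (median -0.89). Adcy3 was 3.22-fold higher (adjusted p = 2.29e-06) on 2 of 4 probe sets with 1 lower. Adcy5 was 1.40-fold higher (adjusted p = 0.0210) while its other 3 probe sets were lower, and it turned to -0.42 with scaling on the hybridization controls. Adcy6 had 15.8 to 134 in IP, all below the brightest trpn control of that group, against 167 to 329 in WB. It was lower (adjusted p = 0.000139), by a log2 difference that ran from -1.13 with a pseudocount of 64 to -1.85 with 1. Adcy1, a calmodulin-stimulated cyclase, was 2.64-fold lower (adjusted p = 1.2e-06), without overlap.

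**Figure D4:**
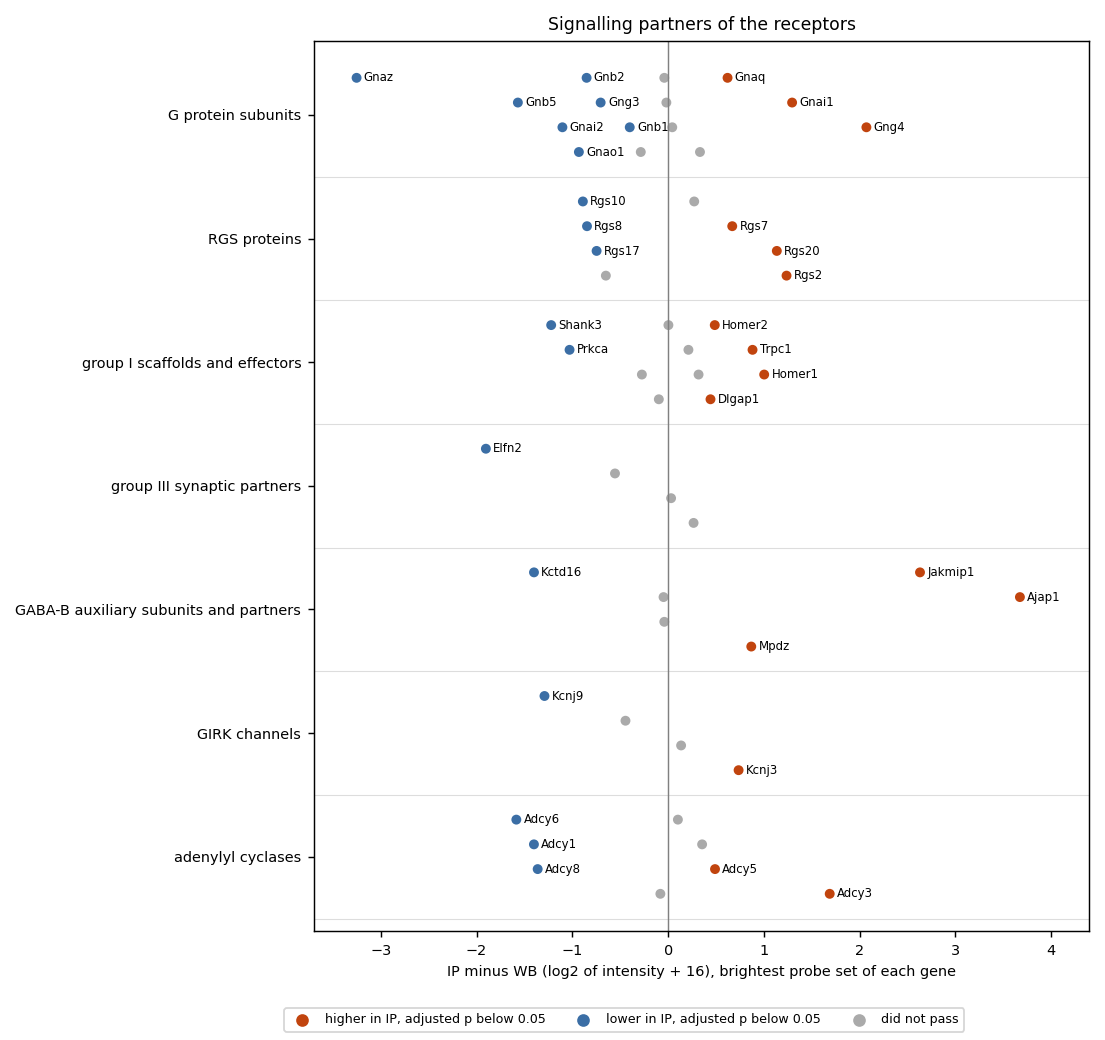
Difference between IP and WB (log2 of intensity + 16, brightest probe set of each gene) for the 56 measured partners in 7 lists, each point a gene, staggered in height for legibility, with genes past an adjusted p of 0.05 named. Points fall on both sides of 0 in every list, from Gnaz at -3.25 to Ajap1 at 3.67.

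Other marker lists over the same arrays were as follows, and their part in the receptor values was not tested. Over all genes 21.7% were higher and 21.7% lower on the brightest probe set, picked by its mean over all 18 arrays, IP included. Over all probe sets the shares were 24.1% and 22% under quantile normalization, 28.4% and 18.5% after median centring, and 3.29% and 61.2% on the hybridization controls. These are not on the basis of the list counts, since as deposited the shares over all probe sets were 14.2% and 30.8%. Shares on the brightest probe set are not given for the other scalings. Orexin neuron markers gave 1 of 5 higher and 1 lower, or 0 and 3 on the hybridization controls. Their summed intensity was 2162 to 4078 in IP and 1960 to 2479 in WB. Pan-neuronal markers gave 4 of 8 higher and 4 lower, but 1 and 6 both under quantile normalization and on the hybridization controls (90209 to 163066 in IP, 75999 to 104567 in WB). Of the 4 that were higher, Rbfox3 and Map2 were lower on 2 other probe sets each, and Snap25 and Nefl on 0. Oligodendrocyte markers gave 3 of 6 higher and 2 lower (47756 to 102616 in IP, 29921 to 42474 in WB). Of the 3 that were higher, Mbp was lower on 4 of its 8 probe sets, Cnp on 2 of 3 and Sox10 on 0 of 3. Microglial markers gave 1 of 6 higher and 4 lower, or 2 lower under quantile normalization and after median centring (3723 to 8368 in IP, 2254 to 3828 in WB). Csf1r, the 1 that was higher, made up most of the IP sum with 3484 to 7722 in IP and 1046 to 2526 in WB. Endothelial markers gave 0 of 5 higher and 3 lower (755 to 1539 in IP, 1658 to 1872 in WB). In each of these lists 0 genes were at 0 on every array.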

How the data were processed

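RNA was measured on 18 arrays, 9 IP and 9 WB, grouped by the labels. The deposited values are linear intensities that the authors computed with MAS5 (no version stated), per the submitters' processing notes. Amplification started from 5 ng and used NuGen WT-Ovation Pico reagents, per the labels' protocols. Detection calls were not used here.

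Here 16 was added to each intensity before log2, which shrinks the folds of dim probe sets. After removing 64 control probe sets, 45037 were fitted with limma 3.58.1 in R 4.3.3 (lmFit and eBayes with an intensity trend, IP against WB, Benjamini-Hochberg adjustment over all of them, calls at adjusted p 0.05). The procedure was tested on simulated data. Pairs of probe sets were compared by exact permutation.

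Every receptor probe set was named. Partners were named by rule: up to 2 largest rises and 2 largest falls per list past the threshold. Members, lists and markers were chosen with earlier results of these data known. Alternatives were a pseudocount of 1 or 64, median centring, quantile normalization, scaling on hybridization controls, a brightness filter, no trend, array weights, a replicate block and leaving out arrays. Leaving out 4 IP arrays together was chosen after seeing the data. Symbols come from the platform annotation; all 13 receptor probe sets matched a reference gene table by Entrez ID.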

Additional observations from a re-analysis of the deposited data

Results flagged for a closer look

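Each of the 26 sets of 9 values (13 receptor probe sets in both groups) was examined for an array far from the others, and 2 had one. Chance flags about 1 in 20 such sets. IP replicate 2 had a log2 value of 4.96 for Grm2 (intensity 15.2, next lowest 137). IP replicate 5 had a log2 value of 10.74 for Grm3 (intensity 1699, next highest 1137).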

How the results depend on the processing

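The counts of 3 higher and 4 lower receptor probe sets were the same with pseudocounts of 1 and 64, the brightness filter (mean log2 of at least 7, 12 receptor probe sets left), no intensity trend, array weights, each array left out in turn, and IP replicates 2, 5, 6 and 8 left out together. Scaling moved them, to 8 lower on the hybridization controls and to 2 lower after median centring. The median of all probe sets moved by 0.34 under quantile normalization, by 0.42 after median centring and by -0.78 on the hybridization controls. Higher calls made up 31.6% of all calls as deposited, and 52.3%, 60.6% and 5.10% under these 3 scalings. The following differences turned sign, and 0 of them passed in that direction. After median centring Grm5 1456119_at was 0.29, Gabbr1 1455021_at 0.34 and Grm8 1421530_a_at 0.084. Under quantile normalization Grm8 1421530_a_at was 0.10, Rgs20 -0.059 and Kcnj3 -0.13. On the hybridization controls Grm7 1458861_at was -0.63, Gabbr1 1425595_at -0.27, Trpc1 -0.025, Kcnj3 -0.18, Adcy5 -0.42 and Hcrt -0.62. Gabbr1 1455021_at was 0.021 with array weights, 0.19 without the 4 IP arrays and between -0.17 and 0.078 with each array left out, and Grm8 1421530_a_at was 0.035 without the 4 arrays. The cause was not tested. Of 10 within-gene pairs 8 passed, 7 with a pseudocount of 1, 6 under quantile normalization, 6 of the 7 left by the brightness filter, 9 without the 4 IP arrays and 8 to 9 with each array left out. With the replicate number as a block, 3 probe sets were higher, 4 were lower and 8 pairs passed. The labels do not say that a number marks a shared animal. Same-number correlations ran from -0.05 to 0.08, and 2 of 9 IP arrays correlated best with their own number. These are on another basis than the whole-array correlations given above, where IP arrays had a mean of 0.73 to 0.83 with the WB arrays. The planned comparison of Gabbr1 with Gabbr2 was not run, as no probe set named Gabbr2 alone.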
